A study of Mus musculus with 4 samples.

Results

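Interferon-stimulated genes are the genes that cells switch on after an interferon binds its receptor, and 41 of them were followed here through every cell class, hashtag and batch of a mouse colon single-cell data set. They were the entries of the gene list, 32285 genes long, whose symbol was in a chosen list of 41 symbols, and all 41 were found. By role they were 4 sensors of viral nucleic acid, 6 regulators of interferon signalling, 18 antiviral effectors, 8 interferon-inducible GTPases, 2 chemokines and 3 genes of antigen processing.

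Type I interferons (such as interferon beta), type III interferons (the lambdas) and interferon gamma bind separate receptors, and all of them signal through JAK kinases to transcription factors. Type I and III interferons assemble a complex that contains IRF9 and binds a DNA element called ISRE, whereas interferon gamma acts at a GAS element and through IRF1. In the gut, epithelial cells are known for their response to interferon lambda, T and NK cells are the main makers of interferon gamma, and macrophages answer interferons with the chemokines CXCL9 and CXCL10, which draw T cells.

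Cells of the colon of C57/BL6J mice were freed with Liberase, marked with 1 hashtag antibody per condition, mixed, sorted as viable and sequenced from their 3' ends in 2 batches of 1 gene expression library each. Wild-type and JUP-KO mice were each studied untreated and after dextran sulfate sodium (DSS), a chemical that damages the colon epithelium, which makes 4 conditions. JUP-KO mice lack Jup, which encodes plakoglobin, a protein of cell junctions. The knockout's allele or Cre driver, the dose and days of DSS, the animals' age and whether each batch had its own mice are not stated in the labels. A p-value below thus reflects how sums of cells varied, and that variation may be technical.

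The hashtags in the files are named Ctrl_WT, Ctrl_DSS, TG_WT and TG_DSS. By name, TG_WT is untreated JUP-KO and Ctrl_DSS is wild type given DSS. Matched in file order to the antibody numbers of the labels' protocols, these 2 tags swap. The other tags read alike either way, Ctrl_WT as untreated wild type and TG_DSS as JUP-KO after DSS, and so does the interaction of genotype with DSS. In epithelial-like cells Jup stood at 71.1 and 64.7 CPM (UMIs, or counted molecules, of the gene per 1000000 of the summed cells) in batches 1 and 2 under Ctrl_WT, 13.6 and 8.86 under Ctrl_DSS, 75.9 and 94.3 under TG_WT, and 29.5 and 47.8 under TG_DSS. Jup was thus lowest under Ctrl_DSS, which goes against TG_WT as a knockout by name, so every group is named by its tag throughout.

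After filtering, 13626 cells were kept, 7155 with a median of 12309 UMIs in batch 1 and 6471 with a median of 7091 in batch 2. All barcodes of the libraries held 133919905 and 95408149 gene UMIs. A single tag was called on 5511 of the kept cells. Cells were clustered without the 41 members, and clusters were named "like" a cell type from marker genes. Levels are in CPM, and intervals and floors cover counting error only. The kept cells of the batches shared 14 barcodes. In bulk sums of cells a higher level can come from more responding cells or from more RNA per cell.

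The members are shown first by the DNA before their start sites, since the elements named above lie there. Of the 41 members, 33 matched a window of 300 bases in RefSeq (GRCm38.p6), from 250 before to 50 after the start. Dhx58, Zbp1, Usp18, Oas2, Rtp4, Parp14, Gbp4 and Iigp1 are named only. The ISRE core was searched as GAAANNGAAA and, on the other strand, TTTCNNTTTC, and 20 of 33 windows (60.6%) held it beside 3.99% of 27025 genes. The GAS core TTCNNNGAA, its own reverse complement, was in 10 of 33 (30.3%) beside 9.55% of those genes. A match is a description of letters, not a shown binding site, and GAS and ISRE matches do not overlap each other in the stretches printed. Each stretch lies upstream of RefSeq's start and is written 5′ to 3′ on the gene's strand, with the matches in capitals.
Isg15 (chr4:156200830-156200929, minus strand, 3 overlapping ISRE matches): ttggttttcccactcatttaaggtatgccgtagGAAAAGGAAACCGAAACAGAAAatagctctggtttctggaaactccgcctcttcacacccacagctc
Ifit1 (chr19:34640759-34640858, plus strand, ISRE): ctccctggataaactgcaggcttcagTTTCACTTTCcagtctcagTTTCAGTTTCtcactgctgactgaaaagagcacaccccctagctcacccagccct
Ifit3b (chr19:34607758-34607857, plus strand, ISRE; the stretch of Ifit3, chr19:34583362-34583461, has the same letters): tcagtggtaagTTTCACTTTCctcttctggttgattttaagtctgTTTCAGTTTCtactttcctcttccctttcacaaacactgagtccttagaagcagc
Rsad2 (chr12:26456518-26456617, minus strand, ISRE): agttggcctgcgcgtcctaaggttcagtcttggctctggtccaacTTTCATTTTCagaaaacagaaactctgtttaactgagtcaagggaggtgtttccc
Gbp7 (chr3:142530236-142530335, plus strand, GAS then ISRE): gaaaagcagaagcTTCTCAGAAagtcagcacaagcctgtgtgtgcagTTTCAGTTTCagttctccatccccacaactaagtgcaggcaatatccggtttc
Cxcl10 (chr5:92349048-92349139, minus strand, ISRE): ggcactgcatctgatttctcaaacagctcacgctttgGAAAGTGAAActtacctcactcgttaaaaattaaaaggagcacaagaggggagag
Igtp (chr11:58199456-58199555, plus strand, GAS then ISRE): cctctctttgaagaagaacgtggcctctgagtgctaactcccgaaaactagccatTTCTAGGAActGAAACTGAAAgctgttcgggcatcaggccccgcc
Irgm2 (chr11:58214868-58214967, plus strand, GAS then ISRE): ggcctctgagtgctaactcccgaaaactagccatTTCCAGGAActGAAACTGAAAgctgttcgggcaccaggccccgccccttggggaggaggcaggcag
Irf1 (chr11:53769878-53769977, plus strand, GAS): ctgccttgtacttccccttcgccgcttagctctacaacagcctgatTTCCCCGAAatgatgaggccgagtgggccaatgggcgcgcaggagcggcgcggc

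Several members lie side by side, which bears on how reads were shared among them. Ifit1, Ifit2, Ifit3, Ifit3b and Ifit1bl1 sit together on chromosome 19, and the counts of Ifit3 and Ifit3b are uncertain because the copies are nearly identical. On chromosome 11 the annotated gene body of Irgm2 (58199618 to 58222782) overlaps that of Igtp (58199556 to 58207591). On chromosome 17 Psmb9 (34181987 to 34187764) and Tap1 (34187553 to 34197225) overlap on opposite strands. How the authors' counting treated such overlaps is not stated in the labels.

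Among the named cell classes, high summed levels of the members were found in some leukocytes but not in all. Macrophage and monocyte-like cells held 5666 CPM in batch 1 (330 cells) and 5358 in batch 2 (728 cells). Dendritic-like cells held 4171 and 4657 CPM, and neutrophil-like cells 5661 and 2396 CPM in the 2 batches. The neutrophil-like level therefore differed between batches by more than the gap between these 3 classes. Endothelial-like cells, only 18 and 24 in number, held 3789 and 2856 CPM. T, NK and innate lymphoid-like cells (1442 and 2261 CPM), plasma-like cells (1958 and 1191 CPM) and fibroblast-like cells (1177 and 1573 CPM) overlapped in their ranges.

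All epithelial-like cells together held 867 CPM in batch 1 and 1575 in batch 2. Free RNA, read from barcodes too poor to be cells, held 1186 and 1588 CPM, so the epithelial level over all tags was below that of free RNA in both batches. Among epithelial subtypes colonocyte-like cells, the absorptive cells, held the most (1393 and 2206 CPM), followed by enteroendocrine-like (894 and 1648 CPM), goblet-like (780.2 and 1417 CPM) and tuft-like cells (682 and 1400 CPM). The ranges of the last 3 overlap each other, and no test was made between classes. Stem and transit-amplifying-like cells held 719 and 1007 CPM. A further cluster with all 8 epithelial markers stayed unnamed, since its leading genes include the neutrophil marker Ly6g beside Clca4b, Duoxa2 and Nos2. Its 4344 and 3856 CPM (288 and 144 cells) exceeded every epithelial subtype named above in both batches. All these class levels pool tags in unlike shares, and the order of classes could differ within a tag. Under Ctrl_WT, colonocyte-like cells held 1677 and 835 CPM and macrophage and monocyte-like cells 1046 and 1997 CPM.

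**Figure D1:**
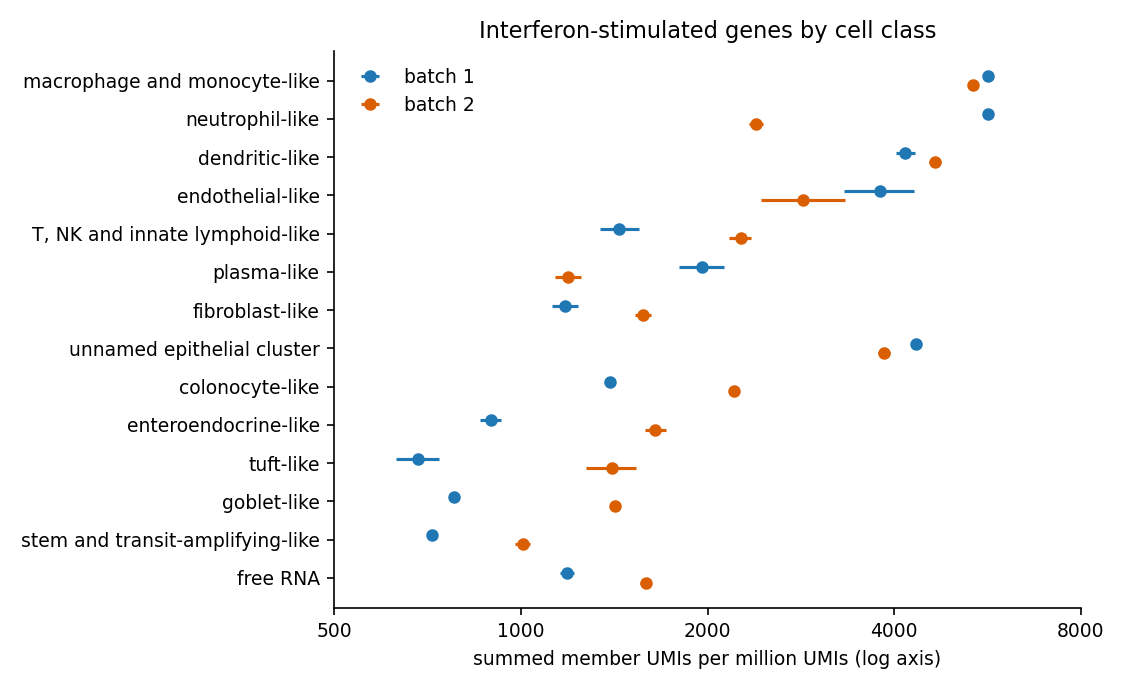
Summed UMIs of the 41 interferon-stimulated genes as CPM (log axis) in each cell class, 1 point per batch, with lines for the exact Poisson interval of the count. Macrophage and monocyte-like cells sit above 5000 CPM in both batches, the unnamed epithelial cluster at 4344 and 3856, and goblet-like, tuft-like and stem and transit-amplifying-like cells below free RNA in both batches.

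Classes differed in which roles led, and values here are means over the 2 batches with the SD (n = 2). Antigen processing led in dendritic-like cells, where Psmb8, an inducible subunit of the immunoproteasome that cuts proteins for display on MHC class I, stood at 1031 ± 51.4 CPM. Its partner subunit Psmb9 stood there at 529 ± 9.32 CPM and Tap1, a subunit of the pump that carries the peptides to MHC, at 135 ± 17.5 CPM. Irf8, a factor that dendritic cells need to develop, was also highest in dendritic-like cells at 462 ± 45.5 CPM. The chemokines led in macrophage and monocyte-like cells, with Cxcl10 at 726 ± 109 CPM and Cxcl9 at 665 ± 288 CPM. In neutrophil-like cells Cxcl10 (883 ± 853 CPM) and Irf1, a factor that turns on GTPase and antigen processing genes (739 ± 576 CPM), had SDs close to their means.

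Single effectors and GTPases led in other classes. Ifit1bl1, of the IFIT family that binds foreign RNA, stood at 678 ± 9.75 CPM in the unnamed epithelial cluster beside 188 ± 56.6 CPM in colonocyte-like cells, which held the next level. The same cluster carried the GTPase Gbp2 at 348 ± 81.5 CPM, Isg15, a ubiquitin-like tag placed on proteins, at 328 ± 43.6 CPM, and the nucleic acid sensors Zbp1 at 229 ± 43.0 CPM and Ifih1 (MDA5) at 111 ± 9.64 CPM. Bst2 (tetherin), which holds budding viruses at the cell surface, led the effectors in endothelial-like (367 ± 44.1 CPM), plasma-like (294 ± 45.0 CPM) and fibroblast-like cells (147 ± 16.7 CPM). Iigp1, a GTPase that attacks the vacuoles of parasites, was the leading GTPase in endothelial-like (517 ± 76.0 CPM), fibroblast-like (184 ± 60.2 CPM), goblet-like (128 ± 87.4 CPM) and stem and transit-amplifying-like cells (112 ± 71.8 CPM). Irf7, which amplifies type I interferon production, had its highest mean in colonocyte-like cells (143 ± 44.3 CPM).

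**Figure D2:**
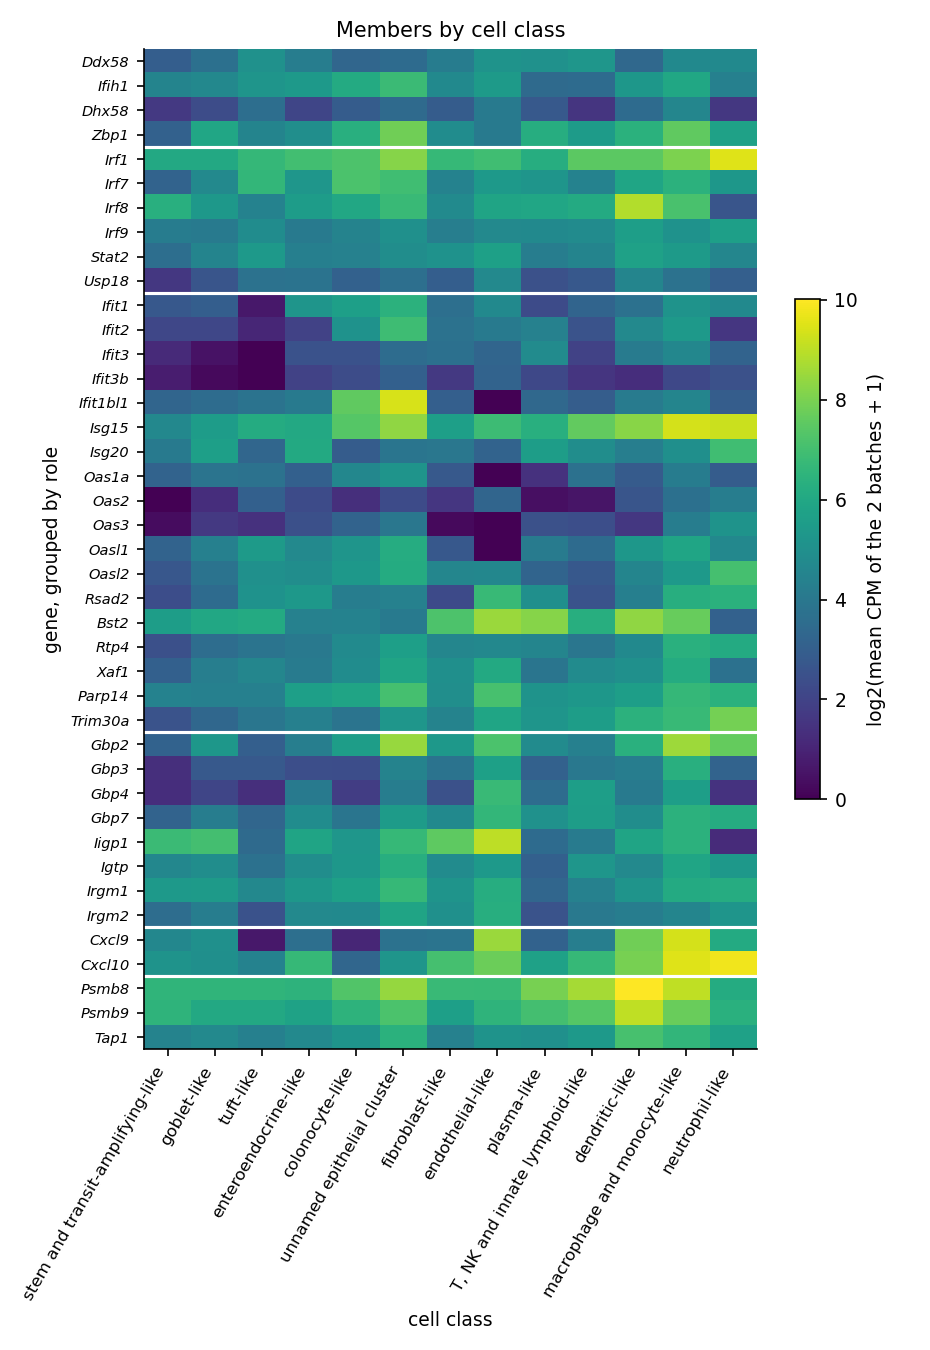
Mean level of each member over the 2 batches, as log2(CPM + 1), by cell class (columns) and gene grouped by role (rows, white lines between roles). The brightest cells are Psmb8 in dendritic-like, Cxcl10 and Irf1 in neutrophil-like, Cxcl9, Cxcl10 and Isg15 in macrophage and monocyte-like cells, and Ifit1bl1 in the unnamed epithelial cluster.

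Within the epithelium the question was how the members differed among the tags. Epithelial-like cells labelled Ctrl_WT held 1093 CPM of members in batch 1 (92 cells) and 757 in batch 2 (56 cells). Cells labelled Ctrl_DSS held 809 (293 cells) and 2193 CPM (395 cells). Cells labelled TG_WT held 689 (337 cells) and 3182 CPM (184 cells), and those labelled TG_DSS 1395 (84 cells) and 1636 CPM (75 cells). TG_WT thus gave both the lowest sum of batch 1 and the highest of batch 2, and the ranges of all 4 tags overlap. The largest difference in the epithelium was between the batches of a single tag.

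Under TG_WT, 41 of 41 members were higher in batch 2 than in batch 1, where 42.2% of 13493 genes were. The median log2 ratio of batch 2 to batch 1 was 2.14 for members and -0.08 for all those genes. Under Ctrl_DSS 41 of 41 were also higher in batch 2, beside 50.1% of genes, with a median of 1.40. Under TG_DSS it was 23 of 38 members, beside 55.2% of genes, and under Ctrl_WT 9 of 34, beside 46% of genes. Untagged epithelial-like cells, which are most of the class, held 864 and 1264 CPM. Of the 39 members tested, 25 had their highest of the 8 sums in TG_WT of batch 2 (10.2% of all genes tested), and 10 in Ctrl_DSS of batch 2 (10.8%). When each gene's richest cell was left out of every sum, a check added after the data were seen, these counts were 25 and 10 (10.7% and 13.9% of genes).

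**Figure D3:**
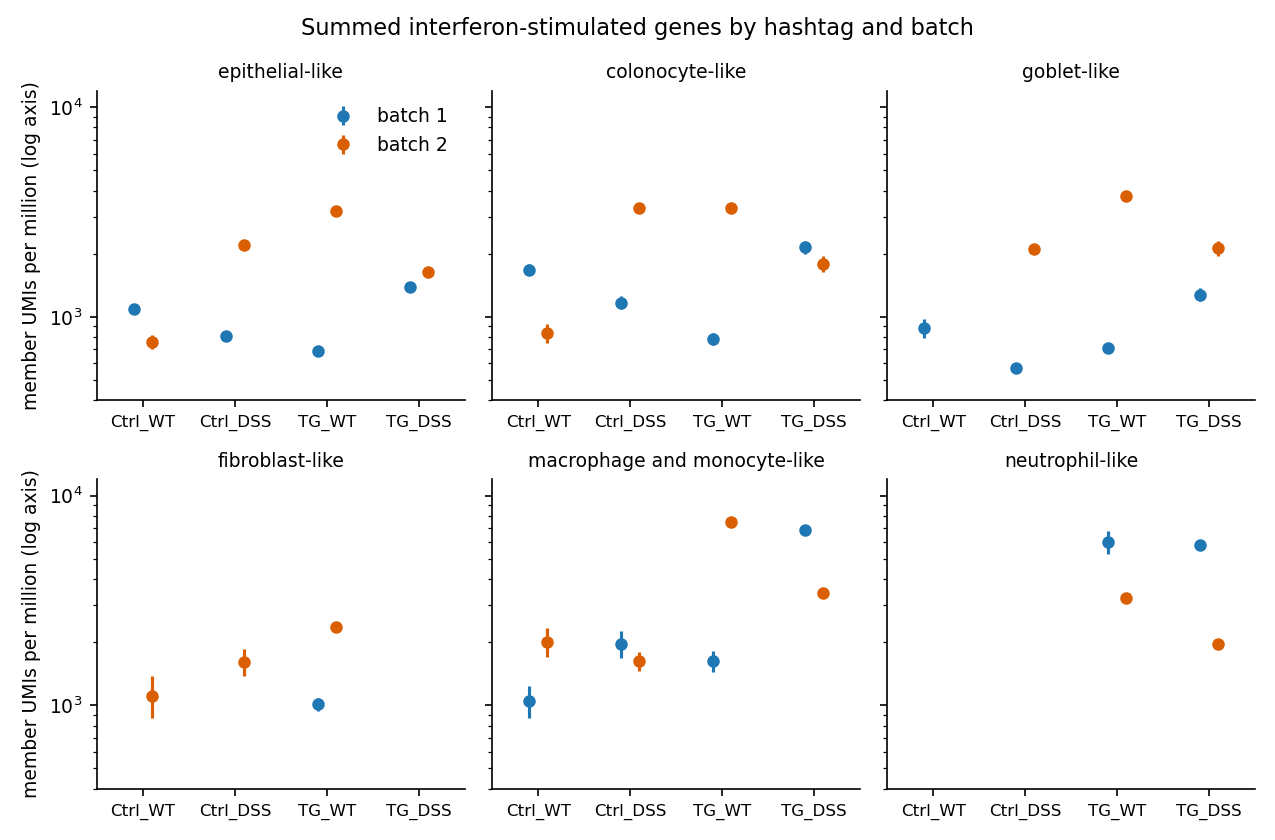
Summed member UMIs as CPM (log axis) by tag and batch in 6 cell classes, with the exact Poisson interval of each count; sums of under 10 cells are not drawn. Under TG_WT batch 2 lies above batch 1 in the epithelial-like, colonocyte-like, goblet-like, fibroblast-like and macrophage and monocyte-like panels and below it in neutrophil-like cells.

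Of the 6 roles, the inducible GTPases differed most between the batches of TG_WT. They are resistance factors that interferon gamma in particular induces. Their summed level in epithelial-like cells was 156 and 93.4 CPM under Ctrl_WT, 129 and 502 under Ctrl_DSS, 90.3 and 943 under TG_WT, and 195 and 437 under TG_DSS. Gbp2 stood at 24.5 and 0 CPM under Ctrl_WT (0 UMIs, with an upper limit of 3.91 CPM), 7.69 and 23.6 under Ctrl_DSS, 16.6 and 180 under TG_WT, and 47.4 and 22.2 under TG_DSS. Its level in TG_WT of batch 2 was above all 7 other sums and above free RNA (39.5 and 53.2 CPM). Igtp (Irgm3), whose upstream stretch above holds both motifs, read 20.1 and 8.49, 12.7 and 79.2, 14.4 and 125, and 19.5 and 37.1 CPM in the same order of tags. Irgm1 showed the same order, with 135 CPM in TG_WT of batch 2 and 17.0 to 67.4 CPM elsewhere. Iigp1 reached 349 CPM in TG_WT of batch 2, 263 in Ctrl_DSS of batch 2 and 249.5 in TG_DSS of batch 2, beside 20.3 to 60.5 CPM in the other sums. Its TG_DSS value was 107 CPM without 1 cell that held 179 of 303 UMIs, and all 57 UMIs of Ctrl_WT in batch 2 were in 1 cell.

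Antigen processing genes followed the same pattern. Psmb8 stood at 119 and 39.3 CPM under Ctrl_WT, 121 and 189 under Ctrl_DSS, 75.9 and 383 under TG_WT, and 119 and 101 under TG_DSS. Tap1 read 94.1 CPM in TG_WT of batch 2 and 9.55 to 46.0 CPM in the other 7 sums. Psmb9 read 211 CPM in that sum, 158 in Ctrl_DSS of batch 2 and 26.5 to 94.4 CPM elsewhere. All 3 were therefore highest in TG_WT of batch 2, but under TG_WT in batch 1 all 3 were below both TG_DSS sums and below Ctrl_WT of batch 1.

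Effectors were split between Ctrl_DSS and TG_WT of batch 2, whose summed levels were 696 and 705 CPM, beside 186 to 478 CPM in the other sums. Isg15 was highest in Ctrl_DSS of batch 2. It read 24.0 and 211 CPM under that tag, beside 54.4 and 48.8 under Ctrl_WT, 16.3 and 118 under TG_WT, and 76.9 and 96.4 under TG_DSS. Of the Ctrl_WT batch 1 value, 73 of 111 UMIs came from 1 cell, without which it was 18.7 CPM. Bst2 was also highest in Ctrl_DSS of batch 2 (109 CPM), and read 55.9 CPM in batch 1 of that tag and 35.4 to 71.6 CPM in the other 6 sums. Ifit1, an RNA-binding effector, read 11.8 and 20.2, 2.81 and 30.8, 3.49 and 47.6, and 24.1 and 24.7 CPM in the order Ctrl_WT, Ctrl_DSS, TG_WT and TG_DSS. Rsad2 (viperin), which makes a chain-terminating nucleotide, was low throughout at 3.18 to 39.5 CPM. Among sensors Zbp1 read 155 CPM in TG_WT of batch 2 beside 19.1 to 76.1 CPM elsewhere, and among regulators Irf1 read 221 CPM there beside 49.3 to 179 CPM.

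The chemokines differed from each other. Cxcl10 in epithelial-like cells stood at 59.3 and 75.3 CPM under Ctrl_WT, 15.1 and 91.5 under Ctrl_DSS, 15.6 and 43.7 under TG_WT, and 133 and 111 under TG_DSS. TG_DSS was higher than the other tags in both batches, in the sums that also held the most leukocyte transcripts (values below). Several of these values rest on single cells: all 71 UMIs of Ctrl_WT in batch 2 came from 1 cell, 89 of 121 in batch 1, and 423 of 826 under Ctrl_DSS in batch 2. Cxcl9 read 9.32 and 15.9 CPM under Ctrl_WT, 3.26 and 75.2 under Ctrl_DSS, 3.32 and 67.8 under TG_WT, and 19.1 and 38.7 under TG_DSS, so that TG_DSS was above TG_WT in batch 1 and below it in batch 2, as the summed GTPases were. Its TG_WT value in batch 2 was 15.6 CPM without 1 cell that held 189 of 245 UMIs.

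To see how widely the response was shared, each cell was thinned to 2000 UMIs and cells with at least 5 member UMIs were counted, with exact Clopper-Pearson intervals. Under TG_WT 18 of 321 epithelial-like cells passed in batch 1 (5.6%, 95% interval 3.4 to 8.7) and 79 of 175 in batch 2 (45.1%, interval 37.6 to 52.8). The shares were 12.1% and 7.3% under Ctrl_WT, 7.2% and 30.1% under Ctrl_DSS, and 23.5% and 15.7% under TG_DSS. Without thinning the TG_WT shares were 66.8% and 84.2%. The batch difference under TG_WT was thus spread over many cells and not held by a few. A list of 10 leukocyte genes summed to 74.4 CPM in these cells in batch 1 and to 4748 CPM in batch 2. Under TG_DSS that list reached 8681 and 16538 CPM, beside 55.8 to 120 CPM under Ctrl_WT and Ctrl_DSS, where Coro1a and Ptprc were at 0 in Ctrl_WT of batch 2. In cells without any of those transcripts the members summed to 1058 and 856 CPM under Ctrl_WT (31 and 18 cells), 934 and 2233 under Ctrl_DSS (103 and 73 cells), 819 and 3008 under TG_WT (138 and 35 cells), and 796 and 3877 under TG_DSS (13 and 5 cells). Under TG_DSS the gap between batches was thus wider in these few cells than in all cells, and in colonocyte-like cells without them Ctrl_WT (1487 and 2738 CPM) and TG_DSS (944 and 4228 CPM) were higher in batch 2, in sums of 3 to 15 cells, where all colonocyte-like cells were lower. The part of leukocyte transcripts in the members' levels was not tested. Colonocyte-like cells were 27.9% and 39.7% of the epithelial-like cells under TG_WT.

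The same batch difference under TG_WT was seen in epithelial subtypes, whose cells are part of the epithelial-like sums above. It was also seen in fibroblast-like cells and in the unnamed epithelial cluster, which are separate from those sums. In goblet-like cells, the mucus makers, members summed to 714 and 3752 CPM and 35 of 38 were higher in batch 2 (35.3% of genes). In enteroendocrine-like cells they summed to 587 and 3070.0 CPM, with 32 of 32 higher (51.2%), and in fibroblast-like cells to 1012 and 2365 CPM, with 25 of 35 higher (40.8%). In stem and transit-amplifying-like cells 18 of 24 were higher (54.2%), and in the unnamed epithelial cluster 29 of 31 (45.8%), there in sums of 13 and 10 cells. Neutrophil-like cells went the other way, with 6 of 31 members higher in batch 2 (56.6% of genes). What differs between the batches of this tag besides the library (animals, dissociation, the sort) cannot be told apart.

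No member passed edgeR's quasi-likelihood test with batch as a term in epithelial-like cells, in any of the 5 comparisons, at an adjusted p of 0.05. For TG_WT against Ctrl_WT it was 0 of 39 (0% of 11986 genes), with 4 members below 0.05 before adjustment, and DESeq2 called 0 (0.184% of genes). The median log2 fold change was 0.53, beside 0.02 over all genes. Within batch 1 it was -0.75, with 4 of 39 higher, and within batch 2 it was 1.96, with 37 of 39 higher. For Ctrl_DSS against Ctrl_WT it was 0 of 39 (0.0417% of genes), with 4 below 0.05 before adjustment, and DESeq2 called 1, Isg20 (2.14% of genes). The medians within batches were -0.69 and 1.68.

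The comparison of TG_DSS with TG_WT turned with the batch. Over both batches 0 of 39 members passed (0.00834% of genes), with 5 below 0.05 before adjustment, and DESeq2 called 1, Cxcl10 (0.601% of genes). In batch 1 32 of 39 were higher under TG_DSS, with a median log2 fold change of 0.78. In batch 2 4 of 39 were, with a median of -0.91. For TG_DSS against Ctrl_DSS, where 474 genes passed (3.95%), no member did, 3 were below 0.05 before adjustment and DESeq2 called 0 (4.84% of genes). The interaction gave 0 of 39 (0% of genes), 3 before adjustment and 0 by DESeq2 (0.292% of genes), with medians of 1.72 and -2.32 within the batches.

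When genes of low count were kept in the fit, members did pass edgeR in epithelial-like cells. For TG_WT against Ctrl_WT 11 of 41 passed (1.6% of 20097 genes), 10 of them higher. Of the 11, Cxcl10, Irf8 and Trim30a went the same way in both batches and 8 did not. Among the 8, Gbp2 had a log2 fold change of 2.13, with -0.59 in batch 1 and 8.53 in batch 2, and Psmb8 1.25, with -0.68 and 3.28. For TG_DSS against TG_WT 10 passed (3.19% of genes), 7 of them with opposite signs in the batches, and for the interaction 8 (1.87%), 5 of them so.

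The batches matched better in the other 2 comparisons. For Ctrl_DSS against Ctrl_WT 6 of 41 passed with low counts kept (3.11% of genes), all higher, and Bst2, Iigp1, Isg20, Psmb9 and Trim30a were higher in both batches, Psmb8 in batch 2 only. For TG_DSS against Ctrl_DSS 8 passed (6.5%). Cxcl10, Gbp7, Irf1 and Rsad2 were higher and Bst2 and Psmb9 lower in both batches, and Gbp2 and Ifit1 turned. These calls depended on the filter, since with it none of them was made.

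By role, all 8 GTPases had a positive log2 fold change for TG_WT against Ctrl_WT, with a median of 1.38, made of -0.75 in batch 1 and 3.79 in batch 2. The 3 antigen processing genes had a median of 1.24 (-0.59 and 3.24). For the 16 effectors tested the median was 0.20, with 10 above 0. Among members that changed the same way in both batches, Trim30a, which dampens inflammatory signalling, had the largest value against Ctrl_WT for TG_WT (1.90) and 2.18 for Ctrl_DSS (SE 0.62, adjusted p = 0.203 by edgeR's quasi-likelihood test). It stood at 1.96 and 3.18 CPM under Ctrl_WT, 7.99 and 18.3 under Ctrl_DSS, 4.32 and 18.8 under TG_WT, and 18.3 and 22.2 under TG_DSS, so Ctrl_WT was lowest and did not overlap the others, on 4 and 3 UMIs. Isg20, an RNA exonuclease, stood at 13.7 and 23.3 CPM under Ctrl_WT and 36.1 and 51.9 under Ctrl_DSS, a log2 difference of 1.22 (SE 0.23, adjusted p = 0.102, edgeR). Bst2 was lower under TG_DSS (36.6 and 35.4 CPM) than under Ctrl_DSS (55.9 and 109 CPM), at -1.14 (adjusted p = 0.0949, edgeR).

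In colonocyte-like cells alone the pattern was like that of the whole epithelium. Members summed to 1677 and 835 CPM under Ctrl_WT, 1170.2 and 3294 under Ctrl_DSS, 785 and 3321 under TG_WT, and 2148 and 1784 under TG_DSS. Under TG_WT 31 of 37 members were higher in batch 2 (47.1% of genes). Of the 30 members tested, 12 had their highest sum in TG_WT of batch 2 (11.5% of genes) and 14 in Ctrl_DSS of batch 2 (5.61%). The GTPases were highest in the former (887 CPM, beside 31.6 to 407) and the effectors in the latter (1652 CPM, beside 217 to 781).

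Single genes showed this split. Isg15 in colonocyte-like cells stood at 144 and 97.3 CPM under Ctrl_WT, 51.4 and 653 under Ctrl_DSS, 15.5 and 91.7 under TG_WT, and 138 and 114 under TG_DSS. Irf7 read 163 and 105, 77.9 and 259, 86.3 and 71.4, and 226 and 121 CPM in the same order. Both were highest in Ctrl_DSS of batch 2, while in batch 1 Ctrl_DSS was below Ctrl_WT and TG_DSS. For Isg15 most UMIs of Ctrl_WT in batch 1 came from the 1 cell noted above for epithelial-like cells. Its order against Ctrl_WT there rests on that cell. Gbp2, in contrast, reached 164 CPM in TG_WT of batch 2 beside 0 to 64.1 CPM elsewhere, and Iigp1 295 CPM beside 0 to 102 CPM. Psmb8 read 428 CPM in that sum and 41.4 to 221 CPM elsewhere.

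The leukocyte list read 52.5 and 99.8 CPM under Ctrl_WT in this class, 44.8 and 98.3 under Ctrl_DSS, 138 and 318 under TG_WT, and 1101 and 411 under TG_DSS. It was thus lower than in all epithelial-like cells in TG_WT of batch 2 and both TG_DSS sums, but higher in TG_WT of batch 1. No member of 30 passed edgeR's quasi-likelihood test. For TG_WT against Ctrl_WT (0% of 6739 genes passed) 3 members were below 0.05 before adjustment, for Ctrl_DSS against Ctrl_WT (0.0297% of genes) 2, for TG_DSS against TG_WT (0.0297%) 5, for TG_DSS against Ctrl_DSS (0.163%) 2 and for the interaction (0%) 1. DESeq2 called 0 in each, beside 0.0148%, 0.0297%, 0.0297%, 0.237% and 0% of genes. With low counts kept, edgeR called 5, 1, 4, 1 and 0 of 41 members in that order (0.331%, 0.149%, 0.311%, 0.581% and 0.122% of genes), and the first 5, which include Iigp1 (1.72) and Isg15 (-1.56), all had opposite signs in the batches. Within batches the medians for TG_WT against Ctrl_WT were -1.24 and 1.57. Cxcl10 had the largest change that went the same way in both batches, 2.73 for TG_DSS against TG_WT (SE 0.52, adjusted p = 0.232, edgeR), on 102 and 3.67 CPM against 13.0 and 1.23 CPM. Of its 39 UMIs under TG_DSS in batch 1, 38 were in 1 cell, without which the level was 3.1 CPM.

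Macrophage and monocyte-like cells carried the members at 1046 and 1997 CPM under Ctrl_WT (23 and 13 cells), 1961 and 1624 under Ctrl_DSS (12 and 28 cells), 1623 and 7509 under TG_WT (31 and 349 cells), and 6877 and 3431 under TG_DSS (231 and 329 cells). The 3 highest sums were the 3 with the most cells. Under TG_WT 35 of 40 members were higher in batch 2 (43.9% of genes), and under TG_DSS 0 of 41 were (50.3% of genes). The batches therefore moved in opposite ways under these tags. Of the 26 members tested, 16 had their highest sum in TG_WT of batch 2 (8.89% of genes) and 4 in TG_DSS of batch 1 (7.95%). Members low under Ctrl_WT and Ctrl_DSS, such as Gbp2 and Cxcl9, could enter the test only through TG sums. For them a TG sum had to be the highest, so no conclusion is drawn from these counts.

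Markers of macrophages, monocytes and neutrophils differed among these sums too. The C1q genes, of resident macrophages, summed to 8467 and 1365 CPM under TG_WT and 2607 and 2210 under TG_DSS, beside 5041 to 10162 CPM under Ctrl_WT and Ctrl_DSS. The monocyte marker Ly6c2 read 0 and 280 CPM under TG_WT, 175 and 202 under TG_DSS, and 0 in 3 of the other 4 sums, with 56.5 CPM in Ctrl_DSS of batch 2. Ccr2, a receptor of monocytes, read 343 and 499 CPM under Ctrl_WT, 178 and 391 under Ctrl_DSS, 92.3 and 574 under TG_WT, and 462 and 584 under TG_DSS. In batch 2 of TG_WT, where members were higher than in batch 1, C1q was lower and Ly6c2 and Ccr2 were higher. In batch 2 of TG_DSS, where members were lower than in batch 1, C1q was lower and Ly6c2 and Ccr2 were higher too. Neutrophil markers in these sums were 174 and 1303 CPM under TG_WT and 1718 and 1215 under TG_DSS, beside 123 to 187 CPM under the other tags. The part of these differences in the members' levels was not tested.

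The chemokines gave the widest range. Cxcl10 stood at 0 and 312 CPM under Ctrl_WT, 11.1 and 165 under Ctrl_DSS, 65.1 and 800.2 under TG_WT, and 939 and 542 under TG_DSS. All 35 UMIs under Ctrl_DSS in batch 2 were in 1 cell. Cxcl9, which interferon gamma induces, stood at 16.3 and 12.5, 22.3 and 23.5, 5.43 and 716, and 1147 and 239 CPM in the same order. TG_DSS was above Ctrl_WT and Ctrl_DSS in both batches for each chemokine, while the TG_WT sums lay on either side. Isg15 (24.5 and 37.4, 33.4 and 56.5, 92.3 and 854, 1002 and 250.3 CPM) and Gbp2 (16.3 and 12.5, 22.3 and 9.41, 16.3 and 818, 323 and 194 CPM) had the same form. Bst2, by contrast, ranged only from 128 to 287 CPM over the 8 sums.

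For TG_DSS against Ctrl_DSS the median log2 fold change of the 26 members was 1.81, beside 0.02 over all genes, and 21 of 26 were higher in both batches (26.7% of genes). Members low under Ctrl_WT and Ctrl_DSS, such as Gbp2 and Cxcl9, could pass the count filter only through TG sums. This selection favours higher values in comparisons with those tags, and all genes tested went through it. None passed edgeR's quasi-likelihood test (0% of 3736 genes), 7 were below 0.05 before adjustment, and DESeq2 called 1, Cxcl10 (0.375% of genes). With low counts kept, 8 of 41 passed (0.73% of genes): Cxcl9, Cxcl10, Gbp2, Igtp, Iigp1, Isg15, Isg20 and Zbp1, each higher in both batches. With the filter the largest values were Cxcl9 at 5.16 (adjusted p = 0.630), Gbp2 at 4.52 (0.638), Cxcl10 at 4.52 (0.591), Igtp at 4.43 (0.644) and Isg15 at 3.99 (0.543, edgeR). The Ctrl_DSS sums held only 12 and 28 cells. In them Cxcl9 and Gbp2 had very few UMIs in each batch, as had Cxcl10 in batch 1, so the sizes of these changes are uncertain. For TG_WT against Ctrl_WT the median was 2.10, 16 of 26 were higher in both batches (26.4% of genes), 0 passed edgeR (0%), 3 were below 0.05 before adjustment and DESeq2 called 0 (0.321% of genes). With low counts kept, 8 of 41 passed (0.387%), all higher, and 6 of them in both batches. Rsad2 there had 3.62 (adjusted p = 0.908), but 27 of its 28 UMIs under TG_WT in batch 1 were in 1 cell, without which 152 CPM became 5.5. Ctrl_DSS against Ctrl_WT, TG_DSS against TG_WT and the interaction had no member past edgeR (0% of genes each), none below 0.05 before adjustment and 0 by DESeq2 (0.0535%, 0.0268% and 0.134% of genes). With low counts kept they had 0 too (0.0572%, 0.121% and 0.0762%). For TG_DSS against TG_WT the medians were 2.49 in batch 1 and -1.11 in batch 2.

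**Figure D4:**
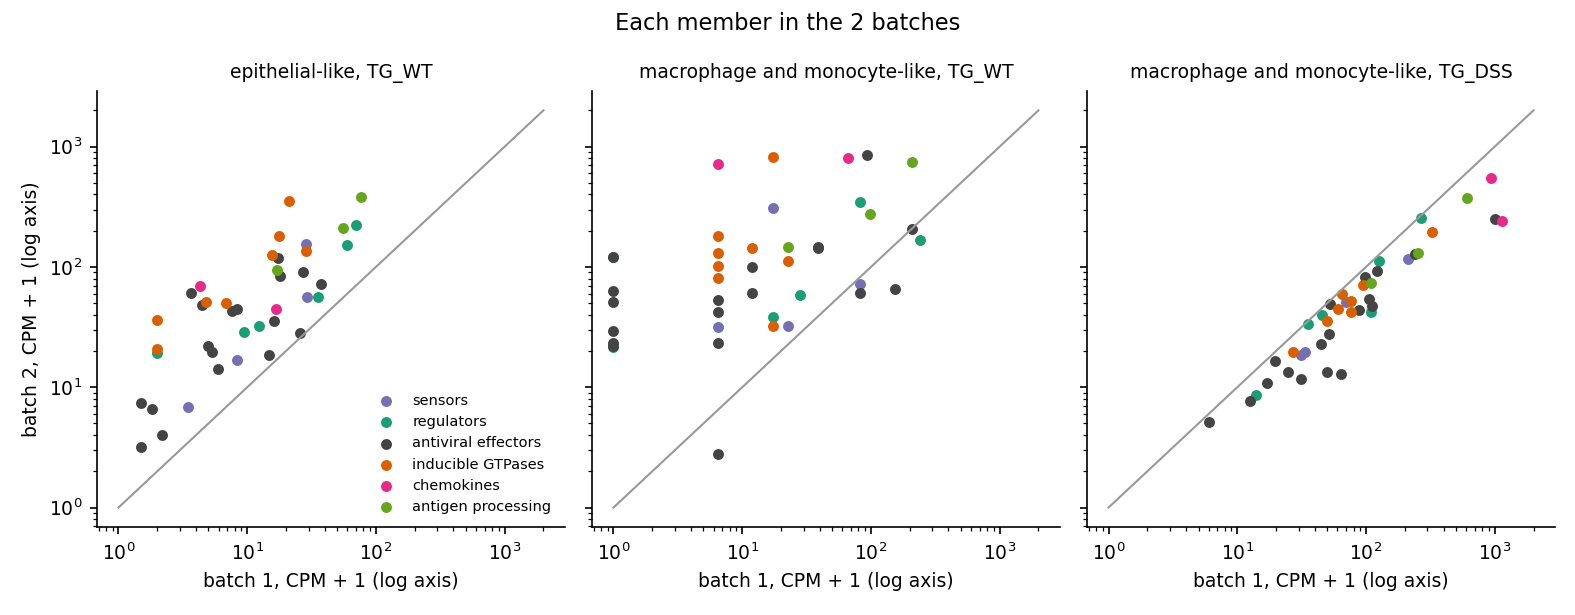
Each point is 1 member, with CPM + 1 in batch 1 (x, log axis) against batch 2 (y, log axis), coloured by role, and the line marks equal levels. Under TG_WT the points lie above the line in epithelial-like cells (41 of 41) and mostly so in macrophage and monocyte-like cells, whereas under TG_DSS all macrophage and monocyte-like points lie below it.

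Counted per cell after thinning to 2000 UMIs, 4 of 23 macrophage and monocyte-like cells under TG_WT had at least 5 member UMIs in batch 1 (17.4%) and 249 of 311 in batch 2 (80.1%). Under TG_DSS the shares were 76.5% and 37.9%, under Ctrl_WT 11.1% and 45.5%, and under Ctrl_DSS 50.0% and 26.1%. The order of the TG_WT and TG_DSS batches by share of cells was the same as by CPM.

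Neutrophil-like cells could be compared only between TG_DSS (609 and 517 cells) and TG_WT (16 and 267 cells), since the other tags held at most 5 cells per batch. Members summed to 5999 and 3245 CPM under TG_WT and 5818 and 1950.5 under TG_DSS, and the ranges overlap. Of 32 members tested, 3 were lower under TG_DSS by edgeR's quasi-likelihood test (lower: 0.133% of 5246 genes; either way: 0.172%) and 10 were below 0.05 before adjustment. With so few sums and a batch term, this fit had almost no residual degrees of freedom. Its p-values rest on variance shared over genes and carry little variation between replicates. Rsad2 stood at 366 and 118 CPM under TG_WT and 116 and 17.5 under TG_DSS, a log2 difference of -2.14 (SE 0.46, adjusted p = 0.0059). Ifit1 read 114 CPM (5 UMIs) and 52.2 CPM against 30.2 and 7.60, a change of -2.38 (SE 0.52, adjusted p = 0.0059), and Gbp2 641 and 323 CPM against 236 and 76.0, a change of -1.70 (SE 0.41, adjusted p = 0.0254). Each was lower under TG_DSS within both batches, as were 16 of 32 members (18.5% of genes), and the median was -0.81 beside 0.09 for all genes.

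The Rsad2 and Ifit1 calls rest on few cells, and all 3 calls use only 16 cells for TG_WT in batch 1. Gbp2 was spread more widely. In batch 2, with tag doublets left out, its 432 UMIs were in 163 of 811 neutrophil-like cells, with at most 16 in 1 cell. Under TG_WT in batch 2, 1 of 267 cells held 41 of the 45 Ifit1 UMIs and 72 of the 102 Rsad2 UMIs, and without it the levels were 4.7 and 34.9 CPM. When the cell with the most Rsad2, Ifit1 and Gbp2 UMIs was left out of each of the 4 sums, a check added after the data were seen, 0 of 30 members passed, Gbp2 stood at -1.58 (adjusted p = 0.230, edgeR), Rsad2 at -0.86 (adjusted p = 1.00), and Ifit1 was too low to test. DESeq2 called 0 on all cells (0% of genes), and so did edgeR with low counts kept (0.0223%). Cxcl10 went the other way in batch 1 only, with 252 and 392 CPM under TG_WT and 1553 and 230 under TG_DSS. Cxcl9 was higher under TG_DSS in both batches, with 114 and 2.32 CPM (5 and 2 UMIs) under TG_WT and 129 and 21.0 under TG_DSS, a difference of 1.62 (SE 0.65, unadjusted p = 0.0125, adjusted p = 0.911, edgeR). It passed with no replicate block and by the highest-tag rule. The share of all genes passing is not given for those settings or for the sums without the richest cells. Irf1 read 824 and 274 CPM against 1165 and 370.

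**Figure D5:**
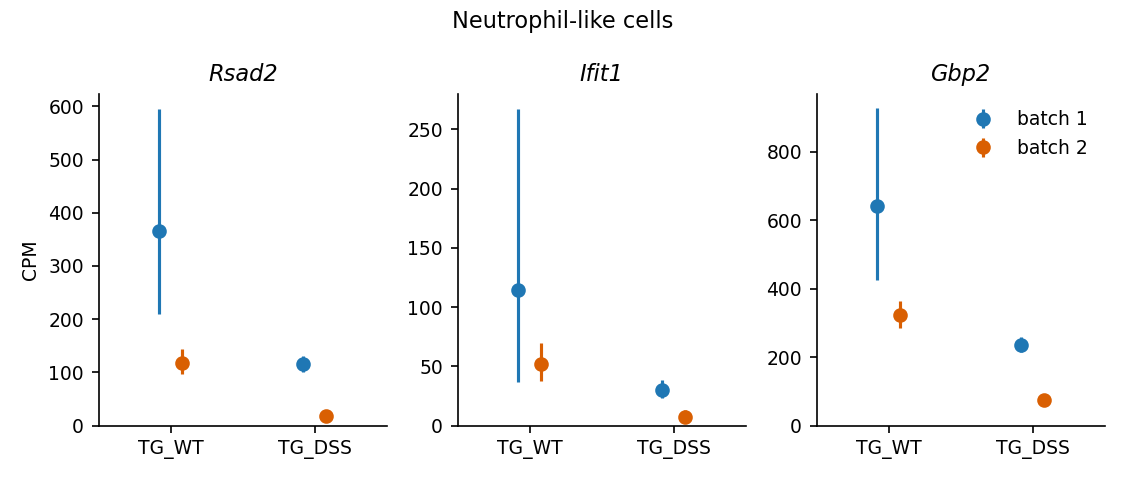
CPM of Rsad2, Ifit1 and Gbp2 in neutrophil-like cells labelled TG_WT and TG_DSS, 1 point per batch, with the exact Poisson interval of the count, which treats UMIs of 1 cell as independent. TG_DSS is lower than TG_WT of the same batch for each gene, and the wide lines of batch 1 under TG_WT come from 16 cells.

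The interferons themselves were found in few cells. Of 1125 UMIs of Ifng, the gene of interferon gamma, 1075 (95.6%) were in T, NK and innate lymphoid-like cells. Under TG_WT in batch 2 there were 834 UMIs in 12 of 110 such cells, 722 of them in 1 cell, and the level of 1730.0 CPM was 237 CPM without it. Under TG_DSS Ifng stood at 274 and 235 CPM, with 23 of 36 and 49 of 119 UMIs in 1 cell. Without that cell these levels were 103 and 140 CPM. In batch 1 Ifng stood at 353 CPM under Ctrl_WT (30 of 32 UMIs in 1 cell). There it also read 182 CPM under Ctrl_DSS (138 without its richest cell) and 0 in the 4 cells under TG_WT. Of 87 UMIs of Ifnb1, the gene of interferon beta, 85 (97.7%) were in macrophage and monocyte-like cells, 73 of them in 4 of 349 cells under TG_WT in batch 2 and 11 in 1 of 31 cells in batch 1. Ifnl3 had 1 UMI, and Ifna1, Ifna2, Ifna4, Ifne and Ifnl2 had 0 in the kept cells.

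Of 56 further genes of the pathway in a list chosen with earlier results known, 54 were in the gene list, all but Mx1 and Mx2. Ido1, a tryptophan-degrading enzyme that interferon gamma induces, stood in epithelial-like cells at 887 CPM in TG_WT of batch 2 and at 2.1 to 142 CPM in the other 7 sums. Socs1, a feedback inhibitor of JAK kinases, read 71.4 CPM in that sum beside 5.0 to 25.5. Both thus had their highest sum where the GTPases did. They are single genes of the 54, and how many of the others had their highest sum there is not given. That sum also held 4748 CPM of the leukocyte list, whose part was not tested. Whether single cells held most of these UMIs was not checked. The receptor subunit Ifngr1 ranged only from 102 to 182 CPM.

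Of these further genes 45 were tested in epithelial-like cells, and 4 rose in TG_DSS against Ctrl_DSS by edgeR's quasi-likelihood test (3.95% of all genes passed there). They were Ifi27l2a at 1.44 (adjusted p = 0.0457), Ifitm1 at 7.23 (0.0275), Slfn2 at 5.67 (0.00659) and Socs3 at 2.85 (0.0197). The leukocyte list read 8681 and 16538 CPM in these TG_DSS sums and at most 120 CPM under Ctrl_DSS and Ctrl_WT, and its part in these 4 was not tested. None of the 45 passed in the other 4 epithelial comparisons, nor any of 32 in colonocyte-like, 27 in macrophage and monocyte-like and 32 in neutrophil-like cells.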

How the data were processed

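The authors deposited, for each of 2 libraries, the unfiltered counts of UMIs per barcode for 32285 genes and 4 hashtag antibodies, and the submitters' processing notes name mm10 as build and Cell Ranger 7.0.0 as tool. No label names the annotation release. The members and all gene lists were chosen with earlier results of these data known.

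Barcodes were called as cells by UMI total or by departure from the free RNA profile, and kept if they had 250 genes or more and no more than 25% mitochondrial UMIs. Tags were called by a 2-component Gaussian mixture. Cells with more than 1 tag were removed as doublets (266 and 699), with no other doublet caller, and cells with none (4539 and 2611) entered no comparison of tags. Cells were clustered with scanpy 1.11.5 (2000 variable genes, 30 components, 15 neighbours, Leiden resolution 1) without the members and the other listed interferon genes. Clusters were named from marker lists. The limits for epithelial and mixed clusters (6 markers) and for epithelial subtypes (a mean z of 1) were set after the data were seen.

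UMIs of the cells sharing a class, tag and batch were summed where there were at least 10 cells. The sums went into edgeR 4.0.16 (R 4.3.3; TMM, filterByExpr, quasi-likelihood test, terms for tag and batch), and p-values were adjusted over all genes tested by Benjamini-Hochberg. Batch entered as a replicate block because all tags of a batch share 1 library. On simulated counts for TG_WT against Ctrl_WT in epithelial-like cells (11777 genes), the fit recovered 2.06% of 2-fold and 46.4% of 4-fold changes and called 3 of 11583 unchanged genes. For TG_DSS against TG_WT in neutrophil-like cells (5353 genes) it recovered 0% and 16.9%. The simulated counts had the same dispersion for every gene and no difference between batches. These rates therefore need not hold for members that differ between the batches of a tag. Named genes were all members past an adjusted p of 0.05, the 10 members of largest change among those that changed the same way in both batches, and each role's leading member in a class. Other members are given to show a role's values, and were chosen after they were seen.

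Alternatives were DESeq2 1.42.0, median-ratio scaling, no filter, no block, other tag and mitochondrial rules, sums without leukocyte-transcript cells or without secretory clusters, each replicate left out, and, added after the data were seen, sums without the richest cells. Values of 1 further gene of the pathway are not reported here.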

Additional observations from a re-analysis of the deposited data

Results flagged for a closer look

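For 3 members the log2 difference had one sign in both batches between TG_DSS and TG_WT and the other sign between Ctrl_DSS and Ctrl_WT. The share of all genes that did so is not given. Bst2 in epithelial-like cells had log2 differences of -0.02 and -1.16 in the TG tags and 0.46 and 1.51 in the Ctrl tags, with an interaction of -1.51 (SE 0.45, unadjusted p = 0.00986, adjusted p = 0.488 by edgeR's quasi-likelihood test). Dhx58 (LGP2), a regulator of RNA sensing, had -0.03 and -0.87 against 0.09 and 4.32 there, with an interaction of -1.62 (SE 1.16, unadjusted p = 0.200, adjusted p = 0.787, edgeR). Irf8 in macrophage and monocyte-like cells had -0.84 and -0.65 against 0.47 and 0.29, with an interaction of -1.15 (SE 0.61, unadjusted p = 0.0941, adjusted p = 1, edgeR). In batch 1 the TG difference of Bst2 and both differences of Dhx58 were very small, so their signs there carry little. None passed after adjustment. Both readings of the tags give the same interaction, so only the interaction values hold for either. The listed differences compare DSS with no DSS when the tags are read by name, and compare genotypes when the 2 tags are swapped.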

How the results depend on the processing

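In macrophage and monocyte-like cells, changes of scaling, mitochondrial limit and block changed no member's call. The block mattered for neutrophil-like cells: with no replicate block 2 members passed, Cxcl9 and Cxcl10, both higher under TG_DSS, and Rsad2, Ifit1 and Gbp2 did not. There DESeq2 and no filter gave 0, the highest-tag rule gave 1 (Cxcl9), and leaving out the richest cell of each sum, chosen after seeing the data, gave 0. Median-ratio scaling and the 10% mitochondrial limit each gave the same 3 genes.

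With no filter on low counts more members passed edgeR. In epithelial-like cells it was 11 for TG_WT against Ctrl_WT, 6 for Ctrl_DSS against Ctrl_WT, 10 for TG_DSS against TG_WT, 8 for TG_DSS against Ctrl_DSS and 8 for the interaction. In colonocyte-like cells it was 5, 1, 4 and 1 for the first 4 of these, and in macrophage and monocyte-like cells 8 for TG_WT against Ctrl_WT and 8 for TG_DSS against Ctrl_DSS. In epithelial-like cells DESeq2 called 1 for Ctrl_DSS against Ctrl_WT (Isg20) and 1 for TG_DSS against TG_WT (Cxcl10), and it called 1 for TG_DSS against Ctrl_DSS in macrophage and monocyte-like cells (Cxcl10). The highest-tag rule gave 1 (Isg20) for Ctrl_DSS against Ctrl_WT and 1 (Bst2) for TG_DSS against Ctrl_DSS in epithelial-like cells, the 10% mitochondrial limit 1 (Rsad2) for the latter, and leaving out cells with leukocyte transcripts 2 (Igtp and Iigp1) for TG_WT against Ctrl_WT and 1 (Iigp1) for Ctrl_DSS against Ctrl_WT. The share of all genes passing is given, in the results above, only for the main, no-filter and DESeq2 fits. Counts of members under the other settings therefore cannot be set against it. The cause of these shifts was not tested.

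Leaving out 1 replicate gave 0 to 9 members in epithelial-like cells for TG_WT against Ctrl_WT, where 9 passed without TG_WT replicate 1 (Gbp2, Gbp4, Gbp7, Iigp1, Irf8, Psmb8, Psmb9, Tap1 and Trim30a). It gave 0 to 3 for Ctrl_DSS against Ctrl_WT, 0 to 2 for TG_DSS against TG_WT, and 0 to 1 for TG_DSS against Ctrl_DSS and the interaction. In colonocyte-like cells it gave 0 to 1 for TG_WT against Ctrl_WT. In macrophage and monocyte-like cells it gave 0 to 7 for TG_WT against Ctrl_WT (7 without TG_WT replicate 1), 0 to 3 for TG_DSS against Ctrl_DSS and 0 to 1 for TG_DSS against TG_WT. A lone sum left under a tag was taken to vary like the others.

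Signs of single members turned as follows. For TG_WT against Ctrl_WT in epithelial-like cells Cxcl10 (-1.40) was 0.074 by the highest-tag rule and 5.07 without leukocyte-transcript cells. Without the secretory clusters (goblet-like, tuft-like and enteroendocrine-like) Dhx58 was 0.13 for TG_DSS against TG_WT and Trim30a -0.33 for TG_DSS against Ctrl_DSS, and without leukocyte-transcript cells Rtp4 was -0.50 for Ctrl_DSS against Ctrl_WT. Parp14 in colonocyte-like cells was -0.012 for TG_DSS against TG_WT with no filter. In macrophage and monocyte-like cells Ifih1 was 0.063, Oasl1 0.16 and Rsad2 0.089 for TG_DSS against TG_WT by the highest-tag rule. Over the replicates left out, members of macrophage and monocyte-like cells spanned -0.11 to 6.54 (Gbp2), -0.58 to 3.68 (Gbp3), -0.13 to 8.83 (Iigp1) and -0.12 to 4.05 (Xaf1) for TG_WT against Ctrl_WT. They spanned -1.0001 to 0.31 (Ifih1) and -1.41 to 0.19 (Oasl1) for TG_DSS against TG_WT, -0.52 to 1.53 (Parp14) for Ctrl_DSS against Ctrl_WT, and -5.91 to 4.52 (Cxcl10), -1.55 to 10.31 (Irf7) and -6.76 to 1.30 (Tap1) for the interaction. In epithelial-like cells they spanned -3.46 to 0.11 (Gbp4, TG_DSS against TG_WT), and -0.047 to 2.62 (Gbp7) and -0.11 to 0.76 (Irf9) for Ctrl_DSS against Ctrl_WT. In colonocyte-like cells Ifit2 spanned -3.01 to 1.78 and Parp14 -0.17 to 0.51 for TG_DSS against TG_WT, and Parp14 -0.10 to 1.36 for Ctrl_DSS against Ctrl_WT.

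Thinning set the shares of cells with at least 5 member UMIs under TG_WT: with no thinning and at 1000 UMIs they were 66.8% and 1.80% in batch 1 and 84.2% and 28.7% in batch 2 of epithelial-like cells, and 64.5% and 3.85% in batch 1 and 92.6% and 57.2% in batch 2 of macrophage and monocyte-like cells. The summed levels by tag stayed within 1 SD of the batches under the tag and mitochondrial alternatives. With 2 sums per tag and no 2-fold change reliably found on simulated counts, members that did not pass are not shown to be alike. Comparisons in T, NK and innate lymphoid-like and fibroblast-like cells, and neutrophil-like cells with a replicate left out, were not run, for want of cells or of residual degrees of freedom.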
